A study of Mus musculus with 11 samples.

Results

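Complement is a cascade of plasma and cell-surface proteins, and 9 of its genes were followed here in sorted adrenocortical cells of mouse fetuses that lacked or carried Star. The product of Star, steroidogenic acute regulatory protein, moves cholesterol into mitochondria for steroid synthesis. The 9 genes, listed by name and not by their measured values, were the subunits of C1q (C1qa, C1qb and C1qc), the central component C3, the activating factors Cfb and Cfp, the inhibitor Serping1, and the anaphylatoxin receptors C3ar1 and C5ar1. They held 11 of the 41174 probes of the array and were 9 of the 17427 genes with a symbol. A probe was tested if its spot was well above background, by the scanner software's own flag, on at least 4 of the 11 arrays, and 8 of the 9 genes met this, among 20741 genes and unnamed probes in all.

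The study set 4 Star-/- fetuses, all labelled male, against 7 Star+/+ fetuses, 3 male and 4 female, all at E17.5-18.5 of gestation. Cells positive for eGFP were sorted from dissociated adrenal glands, and RNA of each mouse was amplified, labelled with Cy3 and hybridised to its own array. The sources used here do not name the promoter behind the eGFP. Slide 1 held knockout arrays 1 and 2 and wild-type arrays 1 and 2, slide 2 held knockout arrays 3 and 4 and wild-type array 3, and slide 3 held wild-type arrays 4 to 7. Every female array was therefore wild type, and differences between genotypes came from slides 1 and 2. The mice of slide 1 were all male. Wild-type array 3 came from a female, and knockout arrays 3 and 4 came from males. Genotype and sex thus cannot be told apart in the slide 2 values.

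C1q recognises antibody complexes and dying cells and starts the classical pathway. Macrophages are its main source in most tissues. C3 is cleaved in every branch of the cascade, factor B (Cfb) forms the alternative pathway's convertase with it, and properdin (Cfp) binds and prolongs the life of that convertase. C1 inhibitor (Serping1) blocks the proteases of the first complex, and C3ar1 and C5ar1 bind the small fragments released from C3 and C5. Hepatocytes make most circulating C3, factor B and C1 inhibitor, and many other cells make them locally.

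The promoters of 6 of the 9 genes were in the RefSeq table of the mouse build GRCm38.p6, as windows of 300 bases from 250 before to 50 after the annotated start. Those of C1qb, C1qc, Cfp and C3ar1 are shown because every measured knockout level of these genes lay above every wild-type level, and that of C3 because its levels overlapped. All 5 lie on the minus strand, at chr4:136886151-136886450 for C1qb, chr4:136892865-136893164 for C1qc, chrX:20931506-20931805 for Cfp, chr6:122856108-122856407 for C3ar1 and chr17:57228087-57228386 for C3, and are written 5′ to 3′ along the gene. Capitals mark GAGGAA or its reverse complement TTCCTC, the core bound by PU.1 and other ETS factors, in C1qb, C1qc and Cfp, the letters TATAAA in C3ar1 and C3, and a match to TTGCNNAA, the letters searched for C/EBP, in C3. Counted from the annotated start, TATAAA began at position −235 in C3ar1 and at position 15, after the start, in C3, so these letters are not called a TATA box here.
C1qb: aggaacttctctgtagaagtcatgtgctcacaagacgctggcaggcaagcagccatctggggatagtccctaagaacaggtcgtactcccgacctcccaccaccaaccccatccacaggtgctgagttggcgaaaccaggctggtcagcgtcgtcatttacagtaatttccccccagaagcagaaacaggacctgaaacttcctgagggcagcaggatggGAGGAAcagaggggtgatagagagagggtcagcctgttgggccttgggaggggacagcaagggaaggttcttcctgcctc
C1qc: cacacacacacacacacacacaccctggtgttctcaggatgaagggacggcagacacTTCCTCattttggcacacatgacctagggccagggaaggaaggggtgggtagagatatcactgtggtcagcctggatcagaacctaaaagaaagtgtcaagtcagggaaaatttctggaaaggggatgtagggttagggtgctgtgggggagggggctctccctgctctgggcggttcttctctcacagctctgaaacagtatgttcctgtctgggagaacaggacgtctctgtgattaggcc
Cfp: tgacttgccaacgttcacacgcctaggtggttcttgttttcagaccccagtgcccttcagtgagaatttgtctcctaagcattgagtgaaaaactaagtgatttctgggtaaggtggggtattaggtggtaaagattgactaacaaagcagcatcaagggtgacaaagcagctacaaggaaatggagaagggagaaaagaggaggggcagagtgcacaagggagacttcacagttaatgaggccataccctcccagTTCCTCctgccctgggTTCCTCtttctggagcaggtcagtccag
C3ar1: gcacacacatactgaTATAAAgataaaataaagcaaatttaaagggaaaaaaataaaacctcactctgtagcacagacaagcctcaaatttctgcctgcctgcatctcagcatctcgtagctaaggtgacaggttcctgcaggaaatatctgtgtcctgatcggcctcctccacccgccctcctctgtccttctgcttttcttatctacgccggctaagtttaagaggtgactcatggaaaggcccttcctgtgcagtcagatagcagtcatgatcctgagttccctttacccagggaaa
C3: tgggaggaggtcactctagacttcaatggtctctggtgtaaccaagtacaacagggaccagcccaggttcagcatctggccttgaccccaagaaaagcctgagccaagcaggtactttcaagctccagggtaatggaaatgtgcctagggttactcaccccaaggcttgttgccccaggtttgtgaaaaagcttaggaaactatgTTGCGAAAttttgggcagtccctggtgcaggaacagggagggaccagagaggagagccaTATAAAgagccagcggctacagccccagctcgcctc

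GAGGAA, searched on both strands, was in 3 of the 6 promoters, those of C1qb (1 match), C1qc (1 match) and Cfp (2 matches), and in 28.3% of the 32851 mouse promoter windows in the table. TTGCNNAA was in C3 alone of the 6 and in 10.8% of all windows, and TATAAA was in C3 and C3ar1 and in 13.6%. The interferon-response letters GAAANNGAA were in C5ar1 alone of the 6 and in 8.56% of windows. The STAT letters TTCNNNGAA (8.3% of windows) and the NF-kB letters GGGANTTTC (1.11%) were in none of the 6 windows. The letters GAA of GAGGAA can also belong to a match of GAAANNGAA or TTCNNNGAA, and a match describes letters only.

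Star, the deleted gene, averaged 2.37 ± 0.73 in knockout arrays and 5.75 ± 1.82 in wild-type arrays (SD, n = 4 and 7). These and all levels here are on a log2 scale, as the processed signal relative to the 75th percentile of its array, so that 0 is a probe brighter than most on its array. The highest knockout level, 3.27, lay above the lowest wild-type level, 3.21 on array 6 of slide 3, and the probe's place relative to the deleted part is not known here. Wild-type levels on slides 1 and 2 were 5.87 to 7.86, above every knockout level. Within these slides the differences were −4.37 and −5.2. The fitted difference was −4.7 ± 0.93 (SE; limma adjusted p = 0.0559). Wild-type array 3 was the dimmest, with a 75th percentile of 114.6 against 705.5 on the brightest array, and correlated least with the rest, at a median r of 0.8773. Adrenocortical markers were present on the arrays of both genotypes. Of 8 listed genes 7 were on the array and tested, and none passed the threshold (1 lower at an unadjusted p under 0.05, Hsd3b1), while all 7 had a difference below 0 (median −1.08). Their summed level, the log2 of the markers' summed linear signal, ran from 7.09 to 8.89 in knockout arrays, against 8.97 to 10.38 in the wild-type arrays of slides 1 and 2 and 6.85 to 10 in those of slide 3. The part of a lower adrenocortical signal in the complement levels was not tested.

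Cfp was the member that rose in Star-/- cells. Properdin, its product, is made by leukocytes and stabilises the alternative pathway's convertase. Its level was 5.83, 5.53, 5.77 and 6.02 in knockout arrays 1 to 4, against 0.92 (lowest), 2.84 (median) and 3.01 (highest) in the 7 wild-type arrays. Every knockout array lay above every wild-type array, and all 11 spots were well above background. The means were 5.79 ± 0.2 in knockout arrays and 2.24 ± 0.86 in wild-type arrays (SD, n = 4 and 7), and the fitted difference of 3.34 ± 0.56 (SE) on the log2 scale was 10.1-fold (95% interval of the log2 difference 2.08 to 4.59; limma adjusted p = 0.0315). Within slide 1 the difference was 2.75, and within slide 2 it was 4.21. In RNA of sorted cells, more cells of a type and more RNA per cell cannot be told apart.

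The call for Cfp did not hold with every array left out in turn. It missed the threshold of 0.05 without any one of the knockout arrays (limma adjusted p = 0.132, 0.0627, 0.111 and 0.0979 without knockout arrays 1 to 4) and without wild-type array 1 (0.0847), 2 (0.0842) or 3 (0.372), and with sex as a further term (0.106; difference 2.84). Without wild-type array 3 the difference was 2.75. Among the 8 tested members Cfp was the 1 past the threshold, 5 were higher at an unadjusted p under 0.05, and 7 had a difference above 0. Over all 20741 features 0.834% were past the threshold (0.603% higher and 0.231% lower), 8.39% were higher at an unadjusted p under 0.05, and 43% had a difference above 0.

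**Figure D1:**
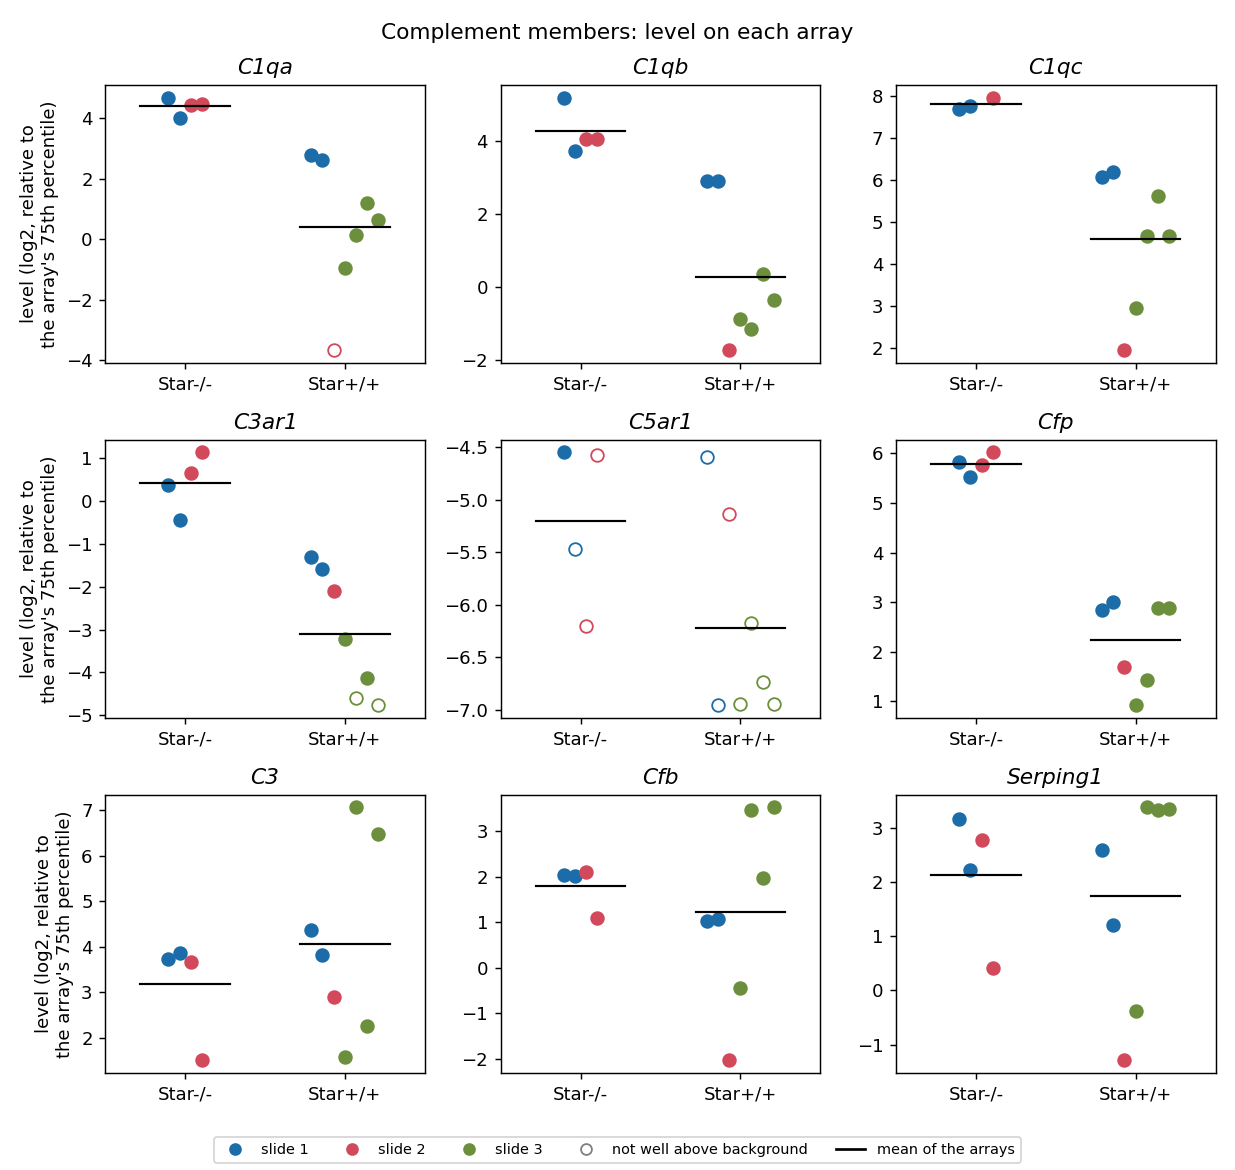
Level of each complement gene (log2 of processed signal over the 75th percentile of its array, vertical axes) in the 4 Star-/- arrays (left) and 7 Star+/+ arrays (right) of each panel. Points are arrays, coloured by slide, open points are not well above background, lines are means, and only the brighter probe of C3 and C3ar1 is drawn. For C1qa, C1qb, C1qc, C3ar1 and Cfp all knockout points lie above all wild-type points, and for C3, C5ar1, Cfb and Serping1 the genotypes overlap.

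The 3 C1q subunit genes, which encode the chains that assemble into 1 recognition molecule and lie next to each other among the protein-coding genes of chromosome 4, stood higher in every knockout array than in any wild-type array, but none passed the threshold. C1qa was at 4.68, 4.02, 4.42 and 4.46 in knockout arrays 1 to 4, against −3.67 (lowest), 0.64 (median) and 2.79 (highest) in wild-type arrays. C1qb was at 5.18, 3.73, 4.06 and 4.06 in knockout arrays, against −1.73, −0.36 and 2.9 in wild-type arrays. C1qc was at 7.69, 7.77 and 7.96 in knockout arrays 1, 2 and 4, against 1.95, 4.68 and 6.18 in wild-type arrays. The knockout spot of array 3 was marked as an outlier by the scanner software and was left out of the C1qc fit, and its level if kept was 7.44. The 2 highest wild-type levels of each subunit were on slide 1.

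The 95% intervals of the C1q genes' log2 differences overlapped, at 1.72 to 6.75 for C1qa, 1.45 to 5.07 for C1qb and 0.96 to 5.18 for C1qc. C1qa differed by 4.23 ± 1.13 (SE; limma adjusted p = 0.113), C1qb by 3.26 ± 0.81 (9.56-fold, adjusted p = 0.0957) and C1qc by 3.07 ± 0.93 (8.42-fold, adjusted p = 0.149). Each was smaller on slide 1 (1.64, 1.56 and 1.6) than on slide 2 (8.12, 5.8 and 6.01). On slide 2 the wild-type value is array 3 alone, whose C1qa spot was not above background, so no fold is given for C1qa and its slide 2 value is not a measured level difference. Without that array the 3 differences were those of slide 1. Without knockout array 4, C1qc also had a difference of 1.6, since no other knockout spot was measured for it on slide 2. With outlier spots kept, C1qc differed by 3.26 (adjusted p = 0.109).

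C3ar1, the receptor for the C3a fragment and a gene of myeloid cells, followed the same order on both of its probes. On the brighter probe the level was 0.37, −0.45, 0.66 and 1.14 in knockout arrays 1 to 4, against −4.77 (lowest), −3.22 (median) and −1.3 (highest) in wild-type arrays, where 5 of 7 spots were above background. The difference was 2.04 ± 0.5 (SE; 4.11-fold, limma adjusted p = 0.0957), with 1.4 within slide 1 and 2.99 within slide 2. The dimmer probe was at −1.4, −1.57, 0.12 and −0.48 in knockout arrays, against −6.91 to −1.96 in wild-type arrays, again with no overlap, and differed by 2.8 ± 1.17 (adjusted p = 0.263 with every probe fitted on its own). C5ar1, the receptor for C5a, was above background on knockout array 1 alone of the 11 arrays and was not tested. Its level was −4.55, −5.47, −6.2 and −4.57 in knockout arrays, against −6.96 to −4.59 in wild-type arrays.

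C3, which both convertases cleave, overlapped between the genotypes over nearly the whole knockout range. Its bright probe was at 3.73, 3.86, 3.66 and 1.51 in knockout arrays 1 to 4, against 1.58 (lowest), 3.81 (median) and 7.06 (highest) in wild-type arrays. The difference was −0.3 ± 1.3 (SE; limma adjusted p = 0.925), with a 95% interval of −3.2 to 2.6 that also spans large changes in either direction. The probe has 10 spots per array, whose SD of 0.03 to 0.076 was far below the spread between arrays. A second C3 probe was above background on knockout array 1 and wild-type array 2 only. C3 is the 1 tested member whose difference was below 0.

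Factor B, the alternative pathway's protease, and C1 inhibitor varied widely among the wild-type arrays. Cfb was at 2.05, 2.01, 2.1 and 1.1 in knockout arrays 1 to 4, against −2.03 (lowest), 1.08 (median) and 3.53 (highest) in wild-type arrays, a difference of 2.04 ± 0.96 (SE; limma adjusted p = 0.291). Serping1 was at 3.16, 2.23, 2.77 and 0.41 in knockout arrays, against −1.29, 2.59 and 3.38 in wild-type arrays, a difference of 1.63 ± 1.04 (adjusted p = 0.422). For both genes the genotypes overlapped over all arrays, and the highest levels were in wild-type arrays of slide 3. Within slide 1 the differences of Cfb and Serping1 were 0.97 and 0.8, and within slide 2 they were 3.63 and 2.88.

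**Figure D2:**
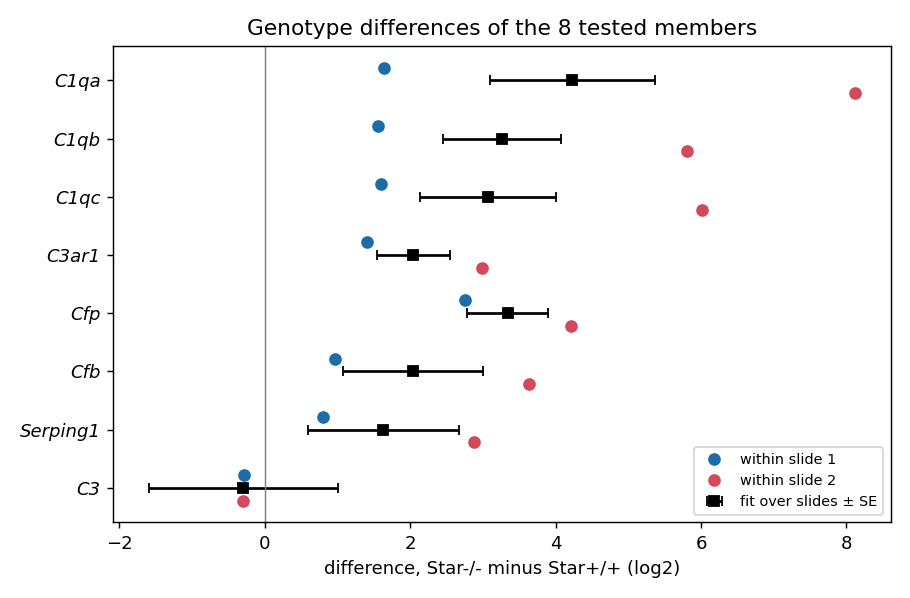
Fitted log2 difference of the 8 tested members, Star-/- minus Star+/+ (horizontal axis), as squares with bars of 1 SE either side, and the differences within slide 1 and within slide 2 as coloured points. Cfp at 3.34 is the 1 member past the threshold, C3 lies at −0.3, and the values of slide 2 exceed those of slide 1 for each member except C3.

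In 5 of the 8 tested members (C1qa, C1qb, C1qc, C3ar1 and Cfp) every measured knockout array lay above every wild-type array, a pattern found in 4.12% of all features tested, and in 3.24% every knockout array lay below. Slide 3 held no knockout array. Against the 3 wild-type arrays of slides 1 and 2 alone, a comparison chosen after the values were seen, Cfb joined the 5, with its lowest knockout level of 1.1 just above a wild-type high of 1.08, which made 6 of 8 members, against 9.1% of all features. The median difference of the 8 members was 2.56, against −0.16 over all features, and 2.17% of features had a difference of at least 2.56. Without wild-type array 3 the members' median was 1.48. The counts describe these arrays, with the members' levels sharing the same 11 libraries.

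Likeness between members is described by Pearson's r over the arrays, which share the genotype and slide differences. C1qa correlated with C1qc (r = 0.98 over 10 arrays, 0.97 in the 7 wild-type arrays) and with C1qb (0.94 over 11 arrays, 0.87 in wild-type arrays). Cfp correlated with C1qb at 0.9 over 11 arrays and 0.71 in wild-type arrays, and with C1qa at 0.87 and 0.7. C3ar1 correlated with C1qb at 0.85 and 0.6, but within the wild-type arrays its r was 0.15 with C1qa, 0.09 with C1qc and 0.18 with Cfp. Cfb and Serping1 correlated with each other (0.91, and 0.93 in wild-type arrays), while C3 correlated with Cfb at 0.67 and 0.76. C1qa and C3 had r = −0.05. Of the 13731 genes ranked by likeness to the mean C1q level, the 5 most alike were Tyrobp (r = 0.988), an adaptor of myeloid receptors, Tmem106a (0.986), the lectin gene Clec4a2 (0.985), Lcp1 (0.983), an actin bundler of leukocytes, and Ms4a6d (0.982). Within the 7 wild-type arrays their r with C1q was 0.985, 0.962, 0.983, 0.971 and 0.959, and 179 genes exceeded 0.9 over all arrays.

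Most macrophage markers, like C1q, Cfp and C3ar1, were higher in knockout arrays than in wild-type arrays. Of 20 listed markers 19 were on the array and tested, and 18 of these were above background on at least 1 wild-type array. Among the 18, Trem2 rose, 17 had a difference above 0, and in 16 every knockout array lay above every wild-type array, against 0.603%, 43% and 4.12% of all features. The summed level of the 19 was 10.14 to 10.94 in knockout arrays, against 5.86 to 8.77 in wild-type arrays, with no overlap. Among wild-type arrays this sum was highest on array 6, where the brighter C3ar1 probe, at −4.14, was below its wild-type median of −3.22. C1qa (1.21), C1qb (0.36), C1qc (5.63) and Cfp (2.89) were above their wild-type medians there. Trem2, a lipid-sensing receptor, was at 6.36 to 7.27 in knockout arrays and 0.77 to 3.74 in wild-type arrays (difference 3.92 ± 0.5 SE, limma adjusted p = 0.0131). The remaining marker, Spi1, which encodes PU.1, was above background on all 4 knockout arrays and on no wild-type array, at least 2.63-fold higher; it met the filter through the knockout arrays alone, so its test is not counted. The macrophage genes Csf1r and Adgre1 were above background on every array, and Cd163, the haemoglobin scavenger receptor, had a difference of −4.06 ± 1.44 (adjusted p = 0.192). The part of macrophage RNA in the levels of C1q, Cfp and C3ar1 was not tested.

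**Figure D3:**
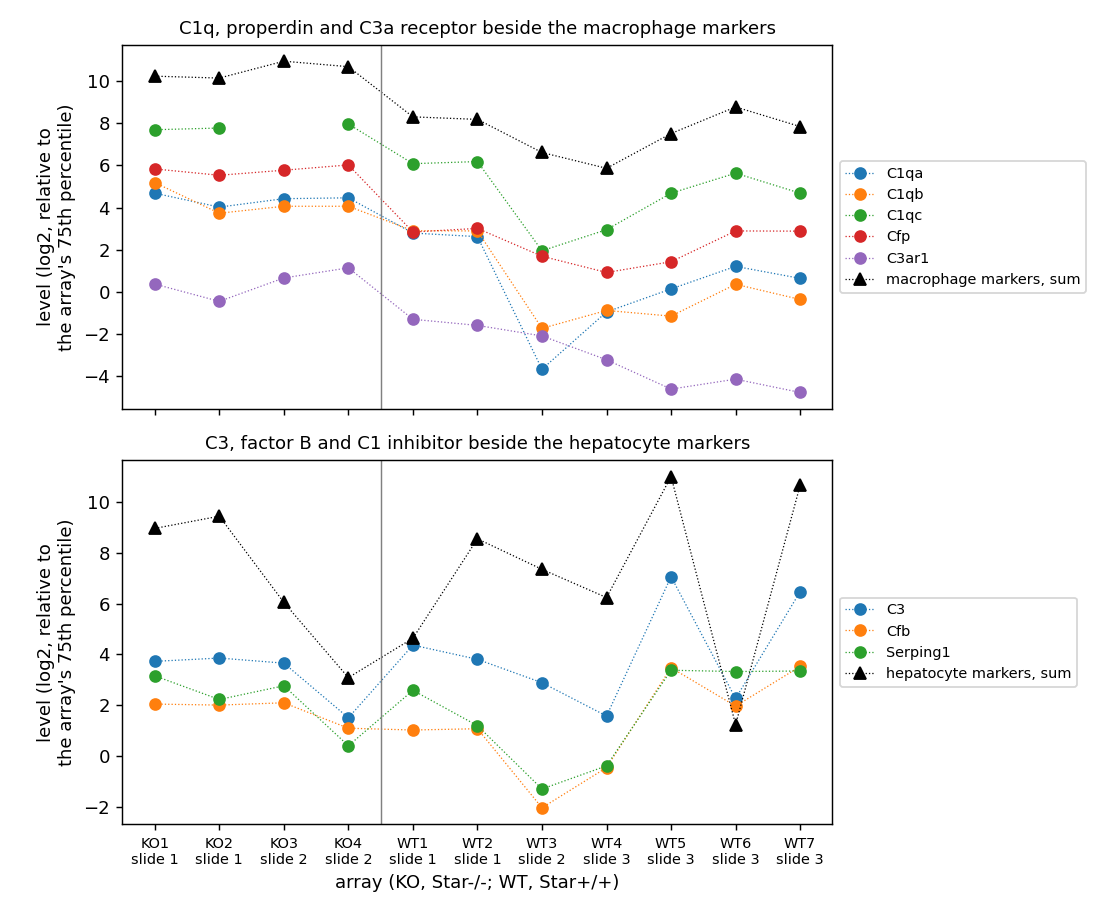
Levels (log2, vertical axes) on each array, Star-/- arrays (KO) left and Star+/+ arrays (WT) right: C1qa, C1qb, C1qc, Cfp and C3ar1 with the summed macrophage markers (triangles) in the upper panel, and C3, Cfb and Serping1 with the summed hepatocyte markers (triangles) in the lower one; dotted lines only guide the eye, and levels of different probes are not comparable. The macrophage sum is 10.14 to 10.94 in knockout arrays and 5.86 to 8.77 in wild-type arrays, and C3 and the hepatocyte sum are both highest on wild-type arrays 5 and 7.

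Some markers of other cell types were highest on the same arrays as C3, Cfb and Serping1. Wild-type arrays 5 and 7 were the 2 highest arrays for all 3 of these genes, for 4 of 6 hepatocyte markers and for 5.51% of all features with values on all arrays, a pattern looked for after the values were seen. C3 was at 7.06 and 6.47 on those 2 arrays, and the summed hepatocyte level was 11 and 10.66 there, with 3.09 to 9.44 in knockout arrays and 1.24 to 8.55 in the other wild-type arrays. Other arrays did not share this order. Wild-type array 6, lowest for the hepatocyte sum, had a C3 level of 2.27 but a Serping1 level of 3.33. Wild-type array 3 had a hepatocyte sum of 7.35 but the lowest Cfb and Serping1 levels of all arrays, −2.03 and −1.29. The summed fibroblast and capsule level was 9.46 to 10.72 in knockout arrays. Wild-type arrays of slides 1 and 2 were at 8.49 to 9.26, with no overlap, and those of slide 3 at 8.3 to 11.13. Against slides 1 and 2 alone, 4 of the 9 markers (Col1a1, Col1a2, Dcn and Lum) lay wholly above in knockout arrays, against 9.1% of all features. The sum was 11.13, 10.43 and 10.79 on wild-type arrays 5, 6 and 7, where Serping1 was at 3.38, 3.33 and 3.35. On the same 3 arrays the chromaffin sum (10.95, 10.8 and 10.53) and the endothelial sum (7.45, 8.28 and 7.06) were also the highest of all arrays, and the adrenocortical sum was 7.13, 6.85 and 7.86. None of the 6 hepatocyte and 9 fibroblast and capsule markers passed the threshold (limma), with 1 at an unadjusted p under 0.05 (Postn, difference 2.12 ± 0.75 SE), and the part of any of these cell types in the 3 genes was not tested.

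Of the other cell types listed, none had a marker past the threshold (limma), while 2 markers were higher and 3 lower at an unadjusted p under 0.05 (Nkg7 and Epor higher, Hbb-bt, Alas2 and Pnmt lower). Nkg7 was above background on 1 of 7 wild-type arrays, so its 4 knockout arrays alone met the filter. Summed lymphocyte markers were at 2.23 to 2.66 in knockout arrays and −1.38 to 1.43 in wild-type arrays, which also did not overlap. The chromaffin sum was 2.08 to 7.18 in knockout arrays, against 7.52 to 8.81 in the wild-type arrays of slides 1 and 2 and 6.62 to 10.95 in those of slide 3, with 5 of 6 markers below 0 and a median difference of −1.57. Neutrophil, mast cell, endothelial and erythroid sums overlapped between the genotypes, also with the arrays of slides 1 and 2 pooled. On either of these slides alone the erythroid sum was lower in knockout arrays. On slide 1 it was 9.24 and 9.52 against 9.91 and 9.77 in wild-type arrays. On slide 2 it was 10.08 and 10.67 against 12.07 in wild-type array 3. The mast cell sum was separate on slide 1 only, and the neutrophil and endothelial sums on slide 2 only.

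Beyond the 9 members, 43 further complement genes were listed, of which 41 had a probe and 33 were tested. None passed the threshold in either direction by limma, 7 were higher and 2 lower at an unadjusted p under 0.05, and their median difference was 0.55. The background over all features was 8.39% higher and 10.1% lower at that unadjusted p. In 5 of the 33 (Itgb2, Itgax, Itgam, C5ar2 and Fcna) every knockout array lay above every wild-type array, against 4.12% of all features. Itgam was above background on 1 of 7 wild-type arrays, so its 4 knockout arrays alone met the filter. Its place in this count and the next is therefore not independent of the filter. Against the wild-type arrays of slides 1 and 2 alone, C1s1, C2 and Colec12 joined them, which made 8 of 33 against 9.1% of all features, and Clu lay below (11.4% of all features). Itgb2, the shared chain of complement receptors CR3 and CR4, was at 0.63 to 2.05 in knockout arrays and −3.34 to −0.89 in wild-type arrays (difference 2.53 ± 0.54 SE, adjusted p = 0.0707). Its partners Itgax and Itgam differed by 6.4 ± 1.57 (adjusted p = 0.0957) and 2.25 ± 0.76 (adjusted p = 0.175), with 4 and 1 of 7 wild-type arrays above background. Itgax differed by 4.77 within slide 1 and by 8.84 within slide 2, the latter against wild-type array 3 alone. The C5a receptor C5ar2, the neighbour of C5ar1 on chromosome 7, differed by 1.42 ± 0.4 (adjusted p = 0.123), and the ficolin Fcna by 2.52 ± 0.81 (adjusted p = 0.158). Fcna was above background on 6 of 7 wild-type arrays. Its value from slide 1 was only 0.63, while slide 2, where array 3 is the wild type, gave 5.34. For C5ar2 the corresponding values were 1.2 and 1.76.

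Of the further genes with the smallest p, the protease gene C1s1, which acts downstream of C1q, differed by 2.67 ± 0.95 (SE; limma adjusted p = 0.196). Clusterin (Clu), a chaperone that inhibits the terminal complex, was at 1.16 to 2.73 in knockout arrays and 2.28 to 4.9 in wild-type arrays (4.47 and above on slides 1 and 2), with a difference of −2.62 ± 0.55 (adjusted p = 0.068), the smallest p of the 33. C1qbp, a mainly mitochondrial protein named for binding C1q, differed by −1.02 ± 0.42 (adjusted p = 0.243). C2, next to Cfb on chromosome 17, differed by 1.06 ± 0.58 (adjusted p = 0.359).

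**Figure D4:**
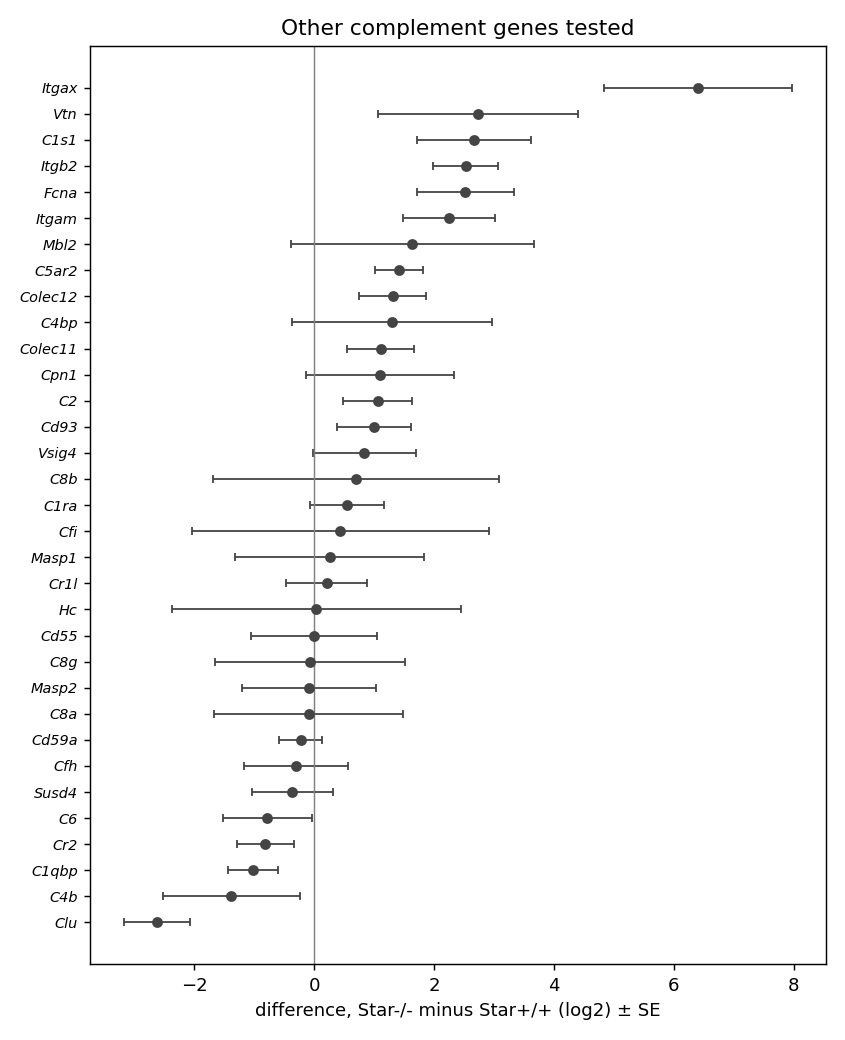
Fitted log2 difference, Star-/- minus Star+/+ (horizontal axis), of the 33 further complement genes tested, as points with bars of 1 SE either side, ordered by difference. Itgax is highest at 6.4, with 4 of 7 wild-type arrays above background, Clu is lowest at −2.62, and none of the 33 is past the threshold.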

How the data were processed

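RNA of eGFP-positive sorted cells was measured on 11 single-colour Agilent arrays, 1 per mouse. The deposited scanner files hold each spot's intensity, background-subtracted by Feature Extraction (version 10.1.1.1 on slides 1 and 2 and 10.5.1.1 on slide 3, per the file headers). The authors' deposited series table holds log2 values. For at least 99.8% of probes they equalled, within 0.01, the log2 signal scaled to the 75th percentile and then centred per probe on its median. Column medians ran from −0.166 to 0.901, so scale, centring and direction are known. Deposited flags, other values of 0 or 1, mark spots above background and outliers.

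Of 45018 spots, 43379 were not controls. Outlier spots (77 to 164 per array) were dropped, spots of a probe averaged, and each array's 75th percentile of log2 signal (114.6 to 705.5 before the log) subtracted. Accessions were named through RefSeq GRCm38.p6, whose gene coordinates were not printed, apart from promoter windows, because the headers name older builds. 25377 of 41174 probes had a symbol. A gene was its brightest probe.

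Genotype was tested with limma 3.58.1 in R 4.3.3 (lmFit and eBayes with terms for genotype and slide, leaving 7 residual degrees of freedom; two-sided, Benjamini-Hochberg over all 20741 features, threshold 0.05). The number of arrays limits the precision. Slide was read from the array barcode and 28 alternatives were run. Genes were named by rule: all members, Star, the 8 other complement genes with the smallest p, the 5 genes most like C1q, and listed markers. C2 was named after its values were seen, as the neighbour of Cfb. Members, lists and tests were chosen with earlier results of these data known.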

Additional observations from a re-analysis of the deposited data

Results flagged for a closer look

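Within the knockout group, C3 on knockout array 4 was at 1.51, far below the other 3 knockout arrays (3.66 to 3.86), and Cfb on the same array was at 1.1, against 2.01 to 2.1 on the others. These were 2 of 23 groups of 4 or 7 arrays examined for a sample far from the rest, and chance alone marks about 1 group in 20. Without knockout array 4 the fitted difference of C3 was 0.06 in place of −0.3. Serping1 was at 0.41 on this array, against 2.23 to 3.16 on the other knockout arrays. The summed hepatocyte (3.09), neutrophil (0.18), chromaffin (2.08), endothelial (5.14) and fibroblast and capsule (9.46) levels were each the lowest among knockout arrays there, and their part in these values was not tested.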

How the results depend on the processing

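The main settings gave 173 features, 1 member (Cfp) and 0 of 33 other complement genes past the threshold, and a members' median of 2.56. Under each other setting the values follow in that order where they moved. With no slide term they were 594, 3 and 5, with a random block for slide 469, 3 and 2, with normexp background 624, 4 and 3, with probes above background on all 11 arrays 403, 2 and 2, and with array weights 1843, 5 and 9. With slide 1 alone they were 0 features and 0 members, and with slide 2 alone 0 and 0 with a median of 3.92. With sex as a further term 28 features and 0 members passed, and with the array median as scale 92 and 0. The robust trended variance prior gave 1 other complement gene. Leaving out 1 array gave 10 to 565 features, 0 to 2 members, medians of 1.48 to 2.94 and 0 to 2 other complement genes. The lowest feature count and median came without wild-type array 3, and the highest feature count without wild-type array 4. C3 turned to 0.03 under the replicate block and 0.06 without knockout array 4, and ran from −0.65 to 0.06 with 1 array left out. All other fitted differences of the 8 members kept their sign under the alternatives that gave them a value (27 for C1qa and C3ar1, whose probes are not above background on all 11 arrays, and 28 for the others). Cfp stayed past the threshold in 17 of 28, with adjusted p between 0.000604 and 0.372.

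Replicate numbers were not shown to pair the mice: same-numbered arrays deviated from their group means with correlations of 0.183, 0.218, −0.008 and 0.185, and 2 of 4 knockout arrays correlated best with the wild-type array of their own number. With the replicate block 177 features, 1 member and 2 other complement genes passed. Where calls moved, the cause was not tested. Signal over background limits C5ar1, the second C3 probe and C3ar1 in wild-type arrays.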
